A study of Mus musculus with 6 samples.

Results

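The 10 genes examined serve as endothelial markers or as receptors of angiogenic factors, and they were measured in ovarian surface epithelial cells of mouse tumours. They are Kdr, Flt1, Tek, Tie1, Eng, Pecam1, Cdh5, Icam2, Esam and Cd93. They were chosen by symbol, among probe sets whose platform annotation names 1 gene only, and 10 of 18194 named genes with 19 of 45101 probe sets were found. Where a gene had several, the probe set brightest on average over the log2 signals stands for it. In all, 3 groups of 2 arrays each were compared: cells homozygous for the R172H mutation of p53, from animals of 4 weeks; cells expressing wild-type p53 together with R172H, called heterozygous here, from animals of 9 and 12 weeks; and cells with wild-type p53, from animals of 9 weeks. All 6 samples carry the prefix P/K, which the labels do not expand, and come from a mixed strain background; whatever P/K stands for is shared by all groups. The cells were digested from the tissue with trypsin, plated and used before any passage, so that other cells of the ovary may be among them. The titles of the homozygous samples name p53, whereas their source field gives a relative of it, and the groups were taken from the titles. Age and homozygosity cannot be told apart.

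Endothelial cells line blood vessels. They sense vascular endothelial growth factors (VEGF) through the tyrosine kinases VEGFR2, encoded by Kdr, and VEGFR1, encoded by Flt1, which binds VEGF-A tightly and is often described as a decoy. Angiopoietins act through Tie2, encoded by Tek, with its relative Tie1, while endoglin, encoded by Eng, is a co-receptor for ligands of the TGF-beta family. Pecam1, the cadherin Cdh5, Icam2 and Esam are adhesion molecules of endothelial contacts, and Cd93 is a C-type lectin-like receptor. Several are not strictly endothelial: Pecam1 and Icam2 are also found on leukocytes and platelets, Esam on platelets, Cd93 on myeloid cells and Eng on stromal cells.

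Upstream sequences of 5 of the 10 genes, Kdr, Flt1, Tek, Tie1 and Eng, were in the RefSeq table (build GRCm38.p6). Those of Kdr, Flt1 and Tie1 are shown because these receptors of related families gave 3 different patterns: lower in both homozygous arrays, high in 1 homozygous array, and under background everywhere. Each is the 250 bases before the annotated start, 5′ to 3′ on the gene's strand. Capitals mark the core of ETS factor sites, GGAA or its reverse complement TTCC; ETS factors are known regulators of endothelial genes.
Kdr, chr5:75978456-75978705, minus strand: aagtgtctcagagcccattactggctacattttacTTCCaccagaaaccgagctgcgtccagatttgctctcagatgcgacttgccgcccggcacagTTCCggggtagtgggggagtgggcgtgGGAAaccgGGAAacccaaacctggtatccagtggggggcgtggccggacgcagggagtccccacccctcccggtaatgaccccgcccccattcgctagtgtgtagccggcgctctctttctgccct
Flt1, chr5:147726012-147726261, minus strand: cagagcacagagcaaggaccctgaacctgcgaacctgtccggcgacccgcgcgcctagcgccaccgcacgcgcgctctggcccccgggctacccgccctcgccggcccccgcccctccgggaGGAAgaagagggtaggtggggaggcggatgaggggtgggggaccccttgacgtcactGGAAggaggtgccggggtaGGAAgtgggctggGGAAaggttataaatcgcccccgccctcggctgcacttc
Tie1, chr4:118489850-118490099, minus strand: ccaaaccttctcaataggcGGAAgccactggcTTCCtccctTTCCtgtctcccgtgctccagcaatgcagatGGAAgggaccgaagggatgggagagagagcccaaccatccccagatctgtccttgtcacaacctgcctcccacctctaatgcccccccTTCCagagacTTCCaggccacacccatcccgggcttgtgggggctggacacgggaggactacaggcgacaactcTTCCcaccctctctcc
The core occurs 4 times upstream of Kdr, 4 times upstream of Flt1 and 7 times upstream of Tie1, counting both strands, against a median of 3 over 32851 promoters of the same length, 93.4% of which hold at least 1. The GC box GGGCGG occurs 2 times upstream of Kdr, 3 times upstream of Flt1 and 0 times upstream of Tie1, on either strand, and 32.7% of promoters hold it. The windows hold 16, 23 and 6 CpG dinucleotides in the same gene order, with a median of 6 over all promoters. The matches of these motifs overlap each other in 0 cases in the 3 windows. These counts describe the letters only, and no binding was measured.

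Signals are the deposited probe set intensities on a linear scale, where 24.5 marks background, the top value among 18 readings of bacterial Trpn controls. Of 17 genes of the ovarian surface and mesothelium, 15 were above background in all 6 arrays, Wt1 and Upk1b among them. The homozygous arrays differed more from each other, by a median of 0.42 on the log2 scale over all tested genes, than the heterozygous (0.29) or the wild-type pair (0.30). Levels are compared between arrays for the same probe set, never between genes. Median signals of the arrays lay between 41.1 and 60.6. The 10916 genes whose geometric mean signal reached 60.2 were tested with limma, in a single fit of all 6 arrays. A gene is called where its p, adjusted by Benjamini-Hochberg over these genes, is under 0.05. Of the 10 members, 5 passed this filter (Kdr, Icam2, Esam, Cd93 and Eng) and 5 did not (Flt1, Tek, Tie1, Pecam1 and Cdh5); a gene can pass through the groups where it is high. The heterozygous samples are of different ages, whereas nothing in the labels says that the 2 homozygous or the 2 wild-type samples came from separate animals, so the p-values measure the spread between these samples.

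The genes parted into those that were clearly present and those that were not. Kdr, Icam2 and Esam were well above background in all heterozygous and wild-type arrays and fell in homozygous cells. Pecam1, Cdh5, Tie1 and Tek, the more strictly endothelial members, lay near or under background in every array. Flt1 and Cd93 were each high in a single homozygous array, and not in the same one. Eng was steady. The genes are therefore treated here singly and not as a measure of endothelial cells.

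**Figure D1:**
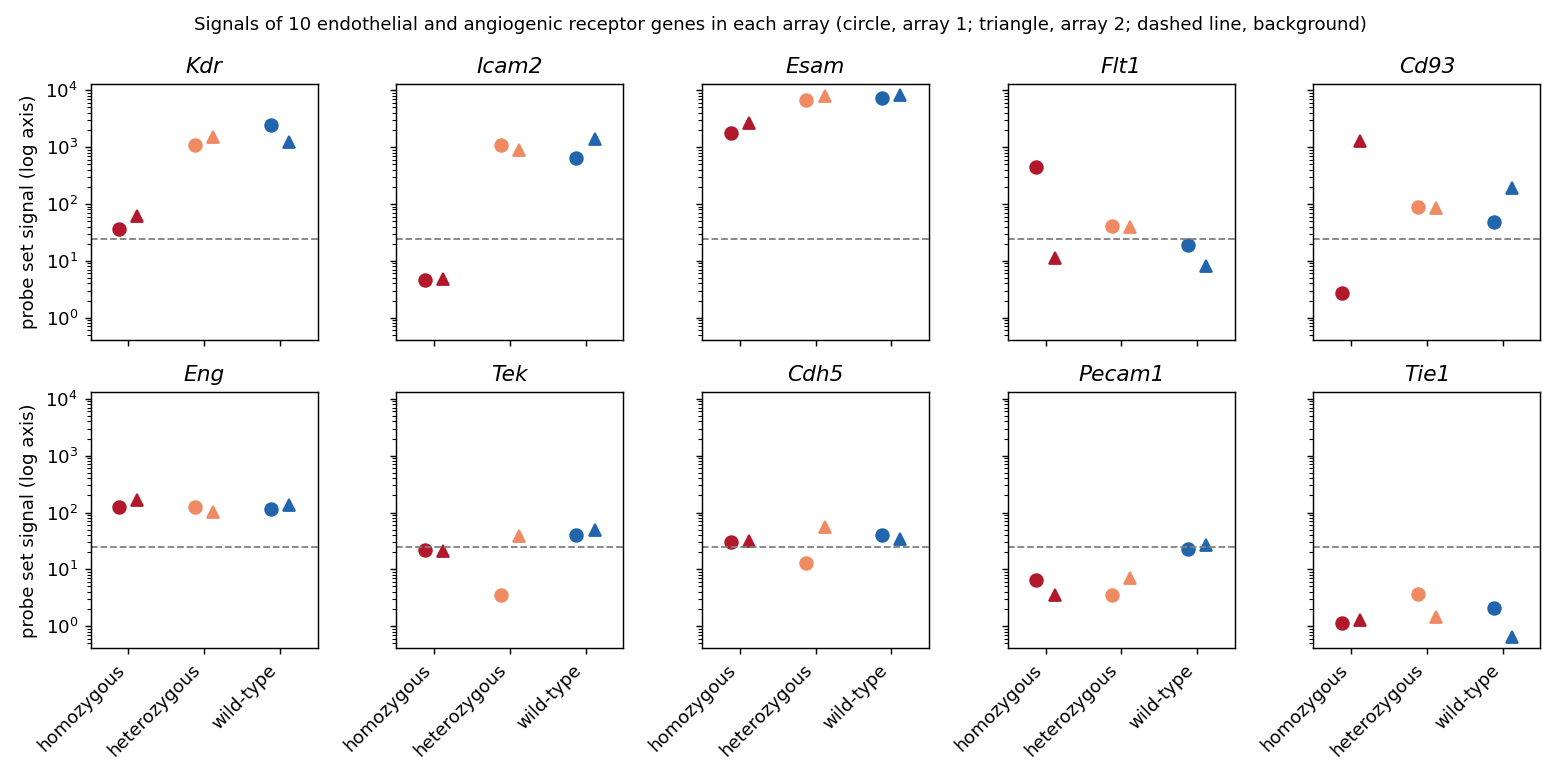
Signal of the 10 genes in each array on a log axis, with homozygous, heterozygous and wild-type arrays from left to right (circles, array 1; triangles, array 2). The dashed line marks background at 24.5; levels should be compared within a panel, where Kdr, Icam2 and Esam are lower in both homozygous arrays and Tie1 is under background in all 6.

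Homozygous against wild-type and heterozygous cells. Kdr, the principal signalling receptor for VEGF-A, had signals of 35.9 and 60.4 in homozygous arrays, 1104 and 1483 in heterozygous arrays and 2469 and 1213 in wild-type arrays. Both homozygous arrays were just above background and far under the other 4. Kdr fell by 5.22 ± 0.46 (SE) on the log2 scale against wild-type cells, 37.2-fold (adjusted p = 0.0171 by limma, n = 2 arrays per group). Against heterozygous cells it fell by 4.78 ± 0.46, 27.5-fold (adjusted p = 0.0187 by limma).

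Icam2, an adhesion molecule that binds leukocyte integrins, had signals of 4.66 and 4.85 in homozygous arrays, 1098 and 876 in heterozygous arrays and 642 and 1403 in wild-type arrays. The homozygous arrays were both under background, so the folds are lower bounds. Icam2 was at least 38.7-fold lower than in wild-type cells (adjusted p = 0.0110 by limma). Against heterozygous cells it fell by at least 5.32 on the log2 scale (adjusted p = 0.0106 by limma).

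Esam, an adhesion molecule of endothelial tight junctions and platelets, kept a clear signal in every array, with 1791 and 2610 in homozygous, 6836 and 7906 in heterozygous and 7222 and 8168 in wild-type arrays. The groups did not overlap, yet the drop was smaller than that of the other two genes. Esam fell by 1.83 ± 0.28 against wild-type cells, 3.55-fold (adjusted p = 0.0448 by limma). It fell by 1.77 ± 0.28 against heterozygous cells, 3.40-fold (adjusted p = 0.0415 by limma). Kdr, Icam2 and Esam have 1 probe set each, so no other probe set could be checked.

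Thus 3 of the 5 tested members were lower in homozygous than in wild-type cells, where 2.25% of all tested genes were called lower and 2.67% in either direction. Against heterozygous cells the same 3 of 5 were lower, where 3.22% of tested genes were called lower and 4.09% in either direction. Their arrays did not overlap in either comparison, as was the case for 61.2% of tested genes in the first and 62.5% in the second, so that non-overlap alone is ordinary here. Over all 10 members, dim ones included, the median log2 difference was -0.87 against wild-type and -0.31 against heterozygous cells. Over the 5 tested members it was -1.83 and -1.77, but Kdr and Icam2 passed the filter through the groups where they are high; over all tested genes it was -0.09 and -0.08. The 2 comparisons share the homozygous arrays. The calls are close to the threshold. Those of Kdr, Icam2 and Esam against wild-type cells all ended with no filter (adjusted p between 0.0512 and 0.121 by limma) and with the replicate block (0.0514 to 0.0824). They also ended when any single wild-type or heterozygous array was left out, and held without either homozygous array. A fit without 1 homozygous array takes its spread from the other groups alone. A call that holds there says nothing of the spread between homozygous arrays. Esam alone also lost its calls with median-centred arrays (log2 -1.46 and -1.47, adjusted p = 0.0672 and 0.0602 by limma). Against heterozygous cells the calls of Kdr and Esam ended in the same way, and that of Icam2 only without either heterozygous array (adjusted p = 0.112 and 0.119 by limma).

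**Figure D2:**
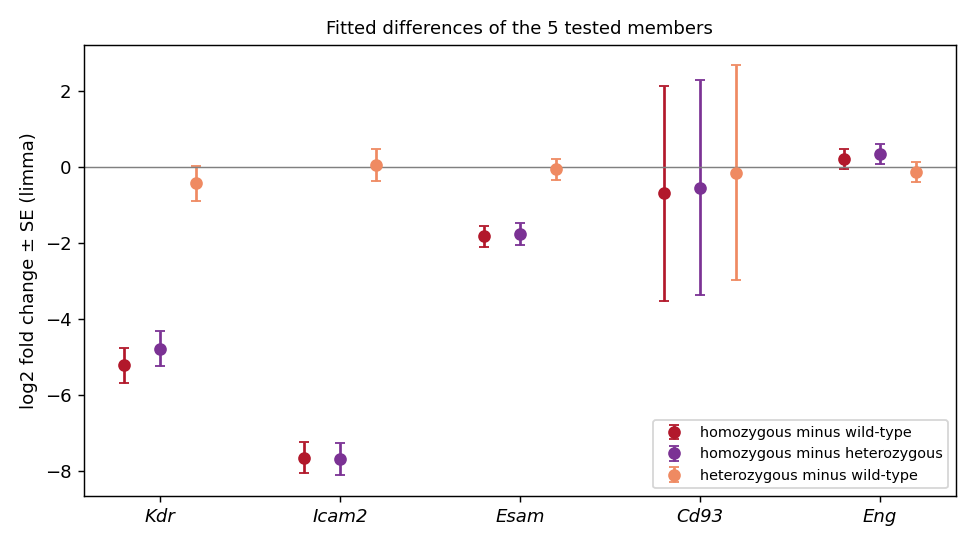
Log2 fold changes of the 5 members that passed the filter on dim genes, with limma standard errors (n = 2 arrays per group), for the 3 comparisons, with homozygous minus wild-type in red, homozygous minus heterozygous in purple and heterozygous minus wild-type in orange. Kdr, Icam2 and Esam lie under 0 in both comparisons with homozygous cells; the fitted values of Icam2, -7.64 and -7.69, rest on homozygous signals under background and are no measured folds, and the bars of Cd93 span 0.

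Heterozygous against wild-type cells. None of the 5 tested members differed beyond the spread in this comparison. The log2 difference was -0.44 ± 0.46 (SE) for Kdr, 0.05 ± 0.42 for Icam2, -0.06 ± 0.28 for Esam, -0.13 ± 0.26 for Eng and -0.15 ± 2.82 for Cd93. Limma called 0.0% of the tested genes, 0 of 10916, and 71 had an unadjusted p under 0.05, none of them a member. Within these 4 arrays Kdr and Icam2 did not move together, since wild-type array 1 had the highest Kdr and the lowest Icam2.

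The strict endothelial markers lay too low for a matching drop to be measured. Tie1 had signals of 1.12 and 1.30 in homozygous, 3.75 and 1.43 in heterozygous and 2.06 and 0.650 in wild-type arrays, all far under background. Pecam1 (CD31), the standard antigen for staining vessels, had 6.38 and 3.53 in homozygous, 3.48 and 7.17 in heterozygous and 22.5 and 26.9 in wild-type arrays. Only wild-type array 2 passed background, by a small margin.

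Cdh5 (VE-cadherin), the cadherin of endothelial junctions, had signals of 30.2 and 32.1 in homozygous, 13.1 and 55.8 in heterozygous and 40.7 and 34.6 in wild-type arrays. These values are close to background, and its other probe set exceeded background only in heterozygous array 1, at 42.8. Tek, the angiopoietin receptor, was at 21.5 and 21.4 in homozygous, 3.61 and 38.8 in heterozygous and 39.7 and 49.7 in wild-type arrays. With no filter on dim genes, the adjusted p of homozygous against wild-type cells by limma was 0.975 for Tie1, 0.152 for Pecam1, 0.872 for Cdh5 and 0.660 for Tek. The log2 difference was -0.27 ± 0.73 for Cdh5, and Tek was at least 1.81-fold lower. Tie1 and Pecam1 have too little signal for a fold; the Pecam1 difference was -0.07 with signals raised to background. Whether Kdr fell more than Pecam1, Cdh5 or Tie1 was not tested.

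Eng, the TGF-beta co-receptor, was above background in every array and did not separate the groups. Its signals were 127 and 164 in homozygous, 127 and 103 in heterozygous and 116 and 136 in wild-type arrays. The log2 difference was 0.20 ± 0.26 against wild-type cells (adjusted p = 0.638 by limma) and 0.33 ± 0.26 against heterozygous cells (adjusted p = 0.424). Its other probe set lay under background except in homozygous array 2, at 29.4.

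Flt1 and Cd93 differed most between the homozygous arrays themselves. Flt1 had signals of 446 and 11.1 in homozygous arrays, 40.2 and 39.3 in heterozygous arrays and 19.0 and 8.01 in wild-type arrays. Homozygous array 1 alone was high, and 2 of the 3 other probe sets showed the same, with 511 and 337 in that array and at most 13.3 in the other 5; the remaining one, at 47.1, was not apart from heterozygous array 2 or wild-type array 1. Against wild-type cells, whose arrays were both under background, Flt1 was at least 2.87-fold higher, a value set by 1 array.

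Cd93 had signals of 2.69 and 1304 in homozygous arrays, 87.6 and 85.1 in heterozygous arrays and 48.6 and 189 in wild-type arrays. Homozygous array 2 was the highest and array 1 the lowest of all 6. A further probe set followed it closely, with 8.42 and 992 in homozygous arrays, and 3 dimmer ones did not exceed 49.1. With the lower array raised to background, the pair differed by at least 5.73 on the log2 scale for Cd93 and by at least 4.18 for Flt1. The Cd93 group difference was -0.69 ± 2.82 against wild-type cells (adjusted p = 0.889 by limma); it was 3.77 without homozygous array 1 and negative without homozygous array 2, where the remaining signal was under background and gives no measured difference. The homozygous arrays lay on either side of the other 4, so that their mean describes neither.

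**Figure D3:**
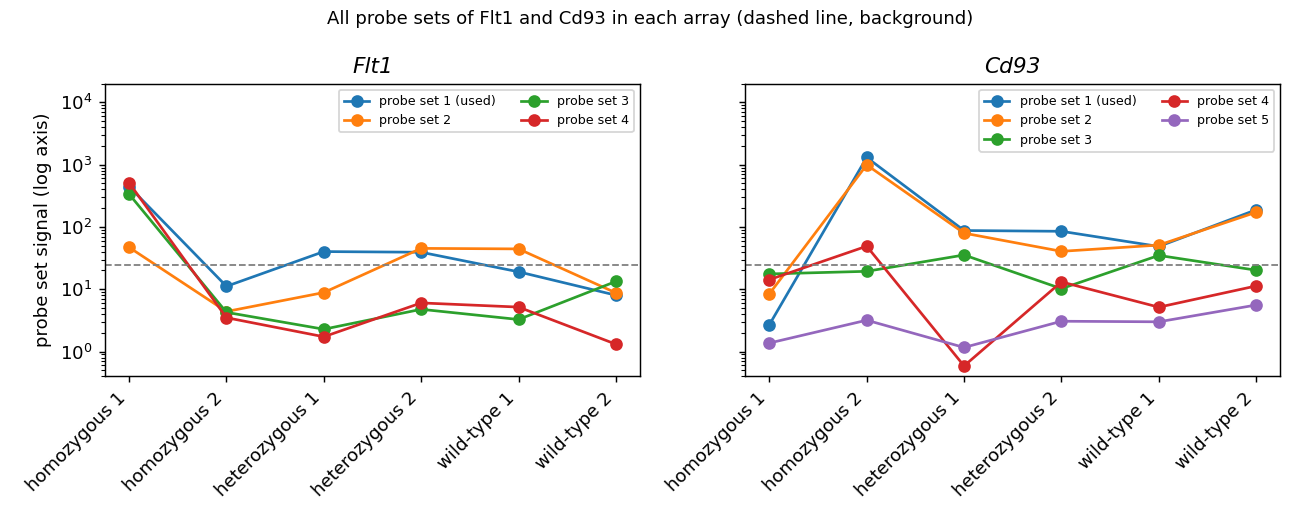
Signal of all 4 probe sets of Flt1 (left) and all 5 of Cd93 (right) in each array on a log axis; lines join the values of a probe set and the dashed line marks background at 24.5. On the left 3 probe sets pass a signal of 300 in homozygous array 1 and in no other array, and on the right 2 pass 500 in homozygous array 2 only.

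Other genes of vessels and angiogenic signalling. Of 21 further endothelial genes, 6 were tested and 0 were called in any comparison. In homozygous against wild-type cells these 6 had a median log2 difference of -0.34. Emcn, a sialomucin of capillaries and veins, had signals of 20.5 and 9.78 in homozygous arrays, a highest value of 28.6 in wild-type array 1 and a lowest of 7.35 in heterozygous array 2. Sox17 and Sox18, transcription factors of vascular development, lay between 15.2 and 64.8 in all arrays. Vwf, the blood clotting factor stored in endothelial cells, did not exceed 13.8, and Erg, an ETS factor of endothelium, did not exceed 14.9; both were chosen after their values were seen. Egfl7, a secreted protein of vessels, had 54.7 and 105 in homozygous, 161 and 200 in heterozygous and 361 and 127 in wild-type arrays, so that both homozygous arrays were the lowest, 2.82-fold under wild-type cells on the mean, which did not pass the test (adjusted p = 0.174 by limma). Aplnr, the apelin receptor, was under background in both homozygous arrays and at least 1.64-fold lower than in wild-type cells (adjusted p = 0.238 by limma with no filter on dim genes). Both were added after their values were seen. Summed over the list, the signal was 2081 and 1594 in homozygous, 1461 and 2139 in heterozygous and 1592 and 1532 in wild-type arrays. Both homozygous sums were above both wild-type sums, the lower one narrowly, and the heterozygous pair spanned all 4. Such sums weigh bright genes most. Ptprb and Flt4, taken up below, were at 753 and 508 and at 742 and 255 in homozygous arrays, each above its other 4 arrays. Of the 6 tested genes, 4 were lower than in wild-type cells on the mean, so the sums do not speak for the list as a whole. Both arrays were above background for 9 of the 21 genes in homozygous, 10 in heterozygous and 9 in wild-type cells. Robo4, a guidance receptor regarded as endothelial, had 2.80 and 294 in homozygous, 297 and 851 in heterozygous and 419 and 410 in wild-type arrays. Both homozygous arrays were the lowest, array 1 under background and array 2 just under heterozygous array 1. The log2 difference against wild-type cells was -3.85 ± 2.13 (adjusted p = 0.282 by limma), and -2.29 with signals raised to background. Robo4 too was chosen after its values were seen.

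Of 20 ligands and partners of the receptors, 13 were tested and 0 were called. Vegfa, the main ligand of both VEGF receptors, had signals of 1095 and 2575 in homozygous, 2323 and 5010 in heterozygous and 3325 and 2105 in wild-type arrays, and the groups overlapped. The log2 difference against wild-type cells was -0.66 ± 0.59 for Vegfa and 0.93 ± 0.52 for Vegfb, a ligand of VEGFR1 (adjusted p = 0.489 and 0.289 by limma). Vegfc, the lymphatic growth factor, was at 655 and 134 in homozygous, 145 and 115 in heterozygous and 225 and 129 in wild-type arrays. Pgf, placental growth factor and a ligand of VEGFR1, had 654 and 10.3 in homozygous arrays, 5.65 and 8.35 in heterozygous arrays and 6.63 and 29.3 in wild-type arrays. Homozygous array 1 thus held the highest signals of Flt1, Pgf and Vegfc. Flt4, which encodes the VEGF-C receptor VEGFR3, was also highest there, with 742 and 255 in homozygous, 96.2 and 128 in heterozygous and 122 and 63.3 in wild-type arrays (log2 2.31 ± 0.61 against wild-type cells, adjusted p = 0.0940 by limma). Pgf and Flt4 were chosen after their values were seen.

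Kdr, Icam2 and Esam beside epithelial and leukocyte genes. Some epithelial, surface and leukocyte genes also fell in homozygous cells, while most of those tested were not called. Over all tested genes, 2.25% were called lower against wild-type and 3.22% against heterozygous cells. In bulk samples fewer cells of a type and less RNA per cell cannot be told apart. Against wild-type cells, 3 of 14 tested epithelial junction and keratin genes fell and 0 rose, with a median log2 difference of -2.47. Epcam, the epithelial adhesion molecule, fell by 5.38 ± 0.39, Spint1, a protease inhibitor, fell by 2.68 ± 0.38 and Marveld2, tricellulin, fell by 1.84 ± 0.24 (adjusted p = 0.0136, 0.0419 and 0.0347 by limma). In all, 12 of the 14 had a negative difference. Among those not called, the log2 difference was -1.22 ± 0.95 for the cadherin Cdh1 and -2.26 ± 0.69 for the keratin Krt8. Others were not lower, with 0.45 ± 0.80 for Krt18, a keratin, and 0.39 ± 0.28 for Elf3, an epithelial transcription factor. Elf3 was chosen after its values were seen. Against heterozygous cells 4 of 14 fell, Ocln (occludin) in addition, by 4.02 ± 0.57 (adjusted p = 0.0398 by limma). Ocln, with a mean of 26.4 in homozygous cells, also passed the filter through the other groups. Of 16 tested genes of the ovarian surface and mesothelium 2 fell, with a median of -1.60: Upk1b, a uroplakin, fell by 2.42 ± 0.27, and Lhx9, a transcription factor of the early gonad, fell by 5.81 ± 0.32 (adjusted p = 0.0270 and 0.0110 by limma). The summed signal of the surface list was 38042 and 83464 in homozygous, 164178 and 149767 in heterozygous and 155943 and 181193 in wild-type arrays.

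Of 10 tested macrophage and leukocyte genes 3 fell against wild-type cells (median -1.72) and 4 against heterozygous cells (median -2.48). Lyz2, lysozyme, was at least 24.1-fold lower than in wild-type cells, Ctss, cathepsin S, at least 22.9-fold, and Mpeg1 fell by 2.63 ± 0.29 (adjusted p = 0.0118, 0.0435 and 0.0268 by limma). Fcer1g, an Fc receptor subunit, fell by 2.48 ± 0.38 against heterozygous cells (adjusted p = 0.0405 by limma). The mean homozygous signals of Lyz2, Ctss, Mpeg1 and Fcer1g were 6.01, 9.00, 23.2 and 35.1. These genes too passed the filter through the groups where they are high. Ptprc (CD45), the leukocyte common antigen, had 21.6 and 2.33 in homozygous, 83.8 and 65.9 in heterozygous and 61.1 and 55.5 in wild-type arrays. The summed signal of the 16 genes of this list was 756 and 1112 in homozygous, 6074 and 5809 in heterozygous and 3178 and 2833 in wild-type arrays. Both arrays were above background for 5 of the 16 in homozygous, 15 in heterozygous and 14 in wild-type cells. Against wild-type cells 8 of the 10 tested genes had a negative difference. Laptm5, a lysosomal protein of blood cells chosen after its values were seen, was not lower (log2 0.61 ± 1.30). All 10 tested genes of the list were nominally higher in heterozygous than in wild-type cells, with a median of 0.84 and 0 called. The part of leukocytes in the fall of Icam2, Kdr and Esam was not tested.

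Platelet genes gave 0 of 3 calls against wild-type cells. Summed over the 5 genes of that list, signals were 274 and 352 in homozygous, 400 and 474 in heterozygous and 473 and 389 in wild-type arrays; Pf4, platelet factor 4, was at 23.4 and 32.1, at 144 and 60.1, and at 94.1 and 86.3 in the same group order. Among mural and fibroblast genes 1 of 9 passed the test, Pdgfra, a receptor of platelet-derived growth factor, which fell by 2.81 ± 0.36 (adjusted p = 0.0326 by limma). Of the granulosa and theca genes, 3 were tested and 0 were called. All 3 were nominally lower in homozygous cells, with a median log2 difference of -3.82 against wild-type and -2.61 against heterozygous cells.

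The shape of each gene across the 6 arrays was compared with the median shape of each list, using log2 signals raised to background and centred on the gene's own mean. The measure is the root mean square difference over the 6 arrays, in log2 units, where 0 is an identical profile. It is not scaled, so the depth of a drop counts as well as its shape. It is a description without a test. Kdr differed by 2.39 from the median of Pecam1, Cdh5 and Tie1, by 2.38 from other endothelial genes, by 1.78 from epithelial junction genes, by 1.64 from surface genes and by 1.61 from macrophage and leukocyte genes. For Icam2 these values were 2.51, 2.49, 1.85, 1.80 and 1.67, and for Esam 0.86, 0.85, 0.40, 0.27 and 0.41. All 3 genes were closer to the epithelial, the surface and the leukocyte medians than to either endothelial median. The former medians fell in homozygous arrays, and a falling gene tends to lie closer to any falling median than to a flat one. The endothelial medians went no lower than -0.10 in any array: most of these genes are near background, and a flat profile cannot be followed. The measure did not separate an epithelial from a leukocyte pattern: the leukocyte median was the nearest for Kdr and Icam2, and the surface median for Esam. By contrast Eng, at 0.21 from the strict endothelial median and 0.90 from the epithelial one, was flat at a level above background.

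**Figure D4:**
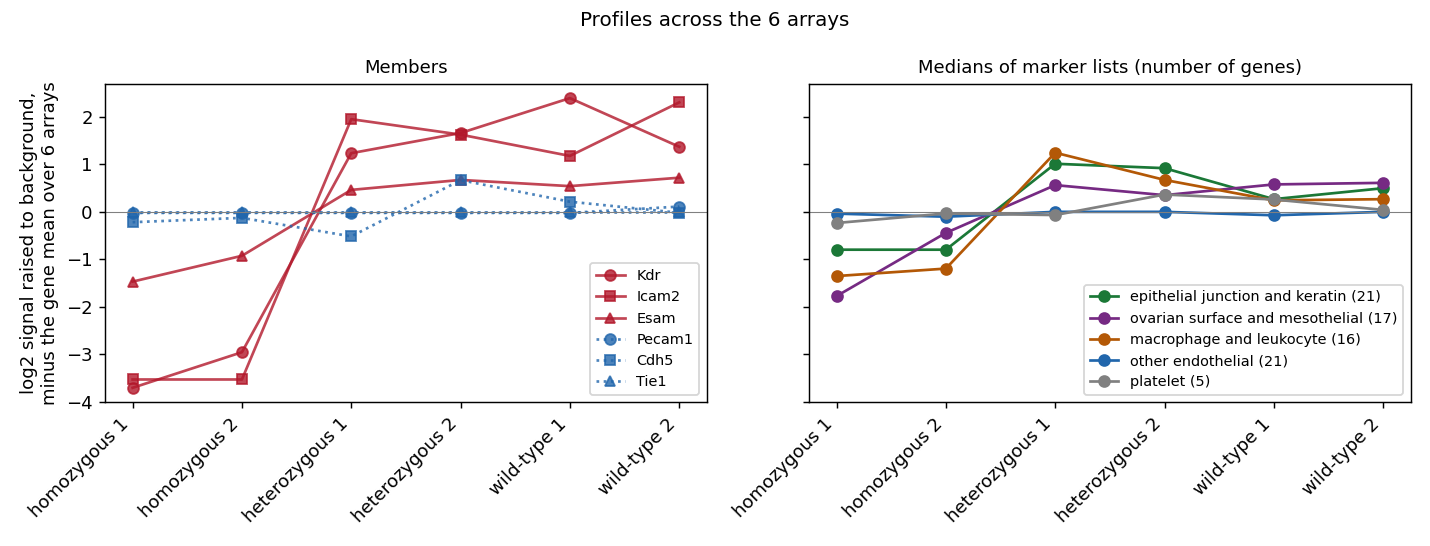
Log2 signals raised to background and centred on the gene's mean, in each of the 6 arrays: on the left Kdr, Icam2 and Esam (solid) with Pecam1, Cdh5 and Tie1 (dotted), on the right the medians of 5 marker lists. Kdr and Icam2 drop to between -3.71 and -2.96 in homozygous arrays, the epithelial, surface and leukocyte medians to between -1.78 and -0.44, and the endothelial median stays near 0.

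The tested genes with the most similar shape were then listed, 5 for each of Kdr, Icam2 and Esam, over the 6 arrays. For Kdr they were Dapk2, a death-associated protein kinase (difference 0.17), Capn6, a calpain-like protein (0.20), Rnase4, a secreted ribonuclease (0.32), Slc16a9, a member of the monocarboxylate transporter family (0.33), and Rtn1, a reticulon (0.35). Dapk2 had signals of 27.9 and 52.4 in homozygous, 994 and 1179 in heterozygous and 2703 and 1164 in wild-type arrays, and so shared with Kdr the high wild-type array 1. For Icam2 they were Pla2g5, a secreted phospholipase (0.27), Ano1, a calcium-activated chloride channel (0.30), Epcam (0.33), Aldh1a7, an aldehyde dehydrogenase whose probe set may also detect its close paralog Aldh1a1 (0.34), and Ooep (0.41). Pla2g5 was under background in both homozygous arrays and had 1208 and 1175 in heterozygous and 460 and 1395 in wild-type arrays, with the low wild-type array 1 of Icam2. For Esam they were the kinase Sik2 (0.09), Susd6 (0.09), the transcription factor Stat5a (0.11), the kinase Eef2k (0.11) and the phosphate exporter Xpr1 (0.11). Of these 15 genes, 1 was on the epithelial junction list (Epcam), 0 were on the endothelial list and 0 on the leukocyte list. Of the 10916 tested genes these lists held only 14, 6 and 10. That is too few for such counts to tell the patterns apart.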

How the data were processed

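Total RNA of 6 samples, 2 in each of 3 groups taken from the titles, was labelled with biotin and measured on single-colour Affymetrix arrays, per the labels' protocols. The deposited values are linear probe set intensities. The submitters' processing notes name RMA, with the version not given in the sources used here, but the mean over the middle 96% of the 45101 probe sets is 500 in every array and the quantiles differ, as in MAS 5.0 signals. Such signals scatter widely near background on the log2 scale. Arrays have no count depth, and their number limits the precision.

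The log2 of the deposited intensity was taken with no offset, background correction or normalisation. Of the probe sets 34958 named 1 gene in the platform annotation, and 34754 of these were matched by Entrez identifier to take their symbol. The 932 with several genes and the 9211 with no gene were not used. Genes at or above the 40th percentile of the mean were tested with R 4.3.3 and limma 3.58.1, in a model of 3 group means without covariates, moderated by empirical Bayes (3 residual and 2.26 prior degrees of freedom). The script was tested on simulated data. A fold against a group with both arrays under 24.5 was computed against that level. The text names all members, the called genes of each list with up to 3 others in list order, and the 5 genes nearest in shape to Kdr, Icam2 and Esam; others are marked. The genes, lists and tests were chosen with earlier results of these data known. Alternatives were the scaling of the arrays, the filter, the probe set rule, signals raised to background, the samples fitted, unequal spread, a replicate block and leaving out each array. Python 3.11.15 with matplotlib 3.10.9 made the figures.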

Additional observations from a re-analysis of the deposited data

How the results depend on the processing

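The differences of Kdr, Icam2 and Esam in both comparisons with homozygous cells stayed negative under every alternative tried, with log2 values against wild-type cells between -5.73 and -4.70 for Kdr, -8.21 and -5.27 for Icam2 and -2.10 and -1.46 for Esam. Their calls held in 8 of 15, 7 of 14 and 5 of 15 alternatives against wild-type cells, and in 8 of 15, 12 of 14 and 6 of 15 against heterozygous cells. These counts include the fits without a homozygous array, whose spread comes from the other groups alone. Leaving out an array of the group not compared gave the same values as fitting only the 2 groups compared. The alternatives are therefore not all separate checks. Icam2 was not tested with the filter at the 60th percentile. Over all genes, limma called 291 against wild-type and 446 against heterozygous cells. The numbers of genes called were 0 and 17 with no filter, 190 and 281 when a gene's probe sets were averaged, 605 and 731 with signals raised to background and 0 and 9 with only the 2 groups compared. Median-centred arrays gave 274 and unequal spread 293 calls against heterozygous cells. Leaving out 1 array gave between 0 and 2663 calls against wild-type and between 0 and 2841 against heterozygous cells; the highest counts came without homozygous array 2, and 673 and 728 without homozygous array 1. Each fit with an array left out had the same number of arrays, and a group left with 1 array added nothing to the spread. The causes of these changes were not tested. Median centring moved the median of all tested genes from -0.09 to 0.28 against wild-type cells and from -0.08 to 0.21 against heterozygous cells.

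With the replicate block 0 genes were called against wild-type and 19 against heterozygous cells. The numbers were not shown to pair the samples: deviations of same-numbered arrays correlated at -0.10 across genes for homozygous and wild-type, -0.30 for heterozygous and wild-type and 0.16 for homozygous and heterozygous arrays.

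Values that changed sign were of differences that had not passed with all arrays. Cd93 was 0.90 against wild-type and 1.05 against heterozygous cells with signals raised to background, and ranged from -5.15 to 3.77 and from -5.01 to 3.92 with an array left out. Against heterozygous cells both of these ends passed the test (adjusted p = 0.00857 and 0.0450 by limma), and against wild-type cells the lower end did (0.00813) and the upper did not (0.0516); each rests on 1 homozygous array, assumed to vary like the other groups, and the lower ends on a signal under background. In heterozygous against wild-type cells the ranges with an array left out were -0.95 to 0.077 for Kdr, -0.28 to 0.018 for Eng, -0.52 to 0.61 for Icam2, -0.17 to 0.042 for Esam and -1.13 to 0.83 for Cd93, and Esam was 0.011 with median-centred arrays. In shape, Icam2 was further from the strict endothelial than from the epithelial median by 0.67 as described and by 1.26 with signals not raised to background, and Kdr by 0.61 and 1.08; the cause was not tested. That difference lay between 0.46 and 0.81 for Kdr, 0.50 and 0.81 for Icam2 and 0.38 and 0.61 for Esam with an array left out.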

Other observations

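The homozygous arrays also differed in stromal genes on the lists examined, beside the contrast of Flt1 and Cd93 between them. Lum, which encodes the matrix proteoglycan lumican, had signals of 2.15 and 1566 in homozygous, 432 and 884 in heterozygous and 310 and 210 in wild-type arrays, so it was highest in the array with the highest Cd93. Col1a1, a chain of type I collagen, was at 491 and 6189 in homozygous, 742 and 508 in heterozygous and 618 and 596 in wild-type arrays. Krt18, a keratin, ran the other way, with 25436 and 5623 in homozygous, 11707 and 6729 in heterozygous and 6247 and 12233 in wild-type arrays. The keratins did not share this direction. Krt19 also was higher in homozygous array 1 (8282 and 947), but Krt8 (1541 and 4728) and Krt7 (60.5 and 1729) were higher in homozygous array 2. Ptprb, a phosphatase of endothelial junctions, was at 753 and 508 in homozygous, 289 and 176 in heterozygous and 108 and 351 in wild-type arrays, and had a log2 difference of 1.67 ± 0.63 against wild-type cells (adjusted p = 0.161 by limma). These genes were chosen after their values were seen.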
